A study of Mus musculus with 10 samples.

Results

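Trans prey between genes are the junctions through which the bait break joined DNA outside protein-coding genes on another chromosome. They were taken by position alone: the junction lay on chromosomes 1 to 19 or X other than chromosome 6, outside every protein-coding RefSeq gene body and more than 2 kb from its ends, with the window from 98.66 to 98.68 Mb on chromosome 2 left out. The 10 libraries held 4155 such junctions, which were 31.6% of 13143 trans prey and 6.07% of all 68433 junctions. The nearest of them lay 2008 bases from a gene. The farthest junction left out as too close lay at 1993 bases, and 194 members at 2 to 3 kb faced 242 excluded junctions at 1 to 2 kb.

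The cells were Abelson-transformed pre-B cells of C57BL/6 background and genotype LIG4-/-, so every group, controls included, lacked the ligase of classical end joining. All were held in G1 by 48 h of imatinib and all received doxycycline (1 µg/ml, from 24 h of imatinib), which induced the zinc-finger nuclease that cuts the bait on chromosome 6. The groups were etoposide (n = 2), IFN with etoposide, DRB with etoposide, AsiSI, DRB with AsiSI, IFN, DRB (n = 1 each) and untreated (n = 2). Etoposide was used at 50 µM for 2.5 h with 12 h of recovery, and DRB for 2 h beforehand. Both AsiSI libraries also received tamoxifen (1 µM, 20 h after doxycycline), which the untreated cells did not. The labels give IFN as an abbreviation only, and they do not say whether replicates were separate cultures or whether the line was 1 clone.

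As background, etoposide traps topoisomerase II in the act of cutting, and these cuts are known to be frequent at chromatin loop anchors and in transcribed genes. DRB blocks transcript elongation, and AsiSI is a restriction enzyme with a fixed recognition site. Without Lig4, ends are joined by alternative pathways, which often use a few matching bases at both ends (microhomology) or add extra bases. Stretches between genes hold enhancers, noncoding RNA genes, the segments of antigen receptor loci and the tandem repeats of centromeres.

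The members came from libraries of very unequal depth, with 2044 to 13425 junctions and 61 to 1739 members each. Read names place etoposide 1 and untreated 1 in run A, IFN, DRB and untreated 2 in run B, etoposide 2, IFN with etoposide and DRB with etoposide in run C, and both AsiSI libraries in run D. Median prey alignments of members were 261 and 229 bp in run A and 55 to 78 bp in the other runs. No read name occurred in more than 1 library.

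A few reads come from places where members recurred, and the values of these places follow further on. Each is the start of the prey part of a deposited read, 5′ to 3′ from the junction, with mm10 positions. The first 3 come from windows of satellite DNA, and their letters are those of the mouse major satellite, the repeat of the pericentromere. Capitals mark the 12-base words found in the most reads of the chromosome 14 window.
chr14:19418646-19418705, - strand, etoposide 1: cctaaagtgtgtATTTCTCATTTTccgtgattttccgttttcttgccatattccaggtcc
chr9:35305256-35305315, + strand, AsiSI: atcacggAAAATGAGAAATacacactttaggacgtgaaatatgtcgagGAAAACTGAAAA
chr12:3110062-3110121, - strand, etoposide 1: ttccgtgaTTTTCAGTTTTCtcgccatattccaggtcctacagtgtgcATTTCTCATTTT

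The next read is a simple tandem repeat, with its unit TAATG in capitals.
chr2:39350215-39350274, + strand, AsiSI: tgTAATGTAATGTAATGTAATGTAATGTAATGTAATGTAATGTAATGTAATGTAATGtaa

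The last pair faces each other across a gap between the noncoding genes Malat1 and Neat1 in the AsiSI library. Capitals mark the letters CGC, with which an end cut by AsiSI begins.
chr19:5804028-5804067, - strand, AsiSI: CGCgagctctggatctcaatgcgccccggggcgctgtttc
chr19:5804081-5804115, + strand, AsiSI: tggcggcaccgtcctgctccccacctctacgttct

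The first comparison asked how etoposide changed joining between genes. Etoposide added intergenic junctions, but it added fewer of them than genic ones, so the intergenic share was lower. Per 1000 junctions within 1 Mb of the bait, members numbered 1452 in etoposide 1 and 139 in etoposide 2, against 250 in untreated 1 and 23.9 in untreated 2. Each etoposide library was above the control that the labels name for it, but untreated 1 was above etoposide 2. The rate ratio was 5.81 (95% interval 5.12 to 6.59) in replicate 1, whose libraries share a run, and 5.81 (4.79 to 7.05) in replicate 2, whose libraries do not. In gene bodies the same ratios were 16.8 (14.8 to 19.2) and 16.6 (13.6 to 20.1). These intervals cover counting error only.

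Members made up 27.2% and 27.2% of trans prey in the etoposide libraries (1739 of 6382 and 557 of 2045), against 52.3% and 51.4% in the untreated libraries (281 of 537 and 126 of 245). The groups did not overlap, and the replicates of each group lay within 1 percentage point of each other. The means were 27.2% ± 0.00802 with etoposide and 51.9% ± 0.636 without (SD, n = 2 each). The difference was -24.6 percentage points, well beyond the spread between replicates, with p = 0.3333 in an exact permutation test (two-sided), as small as this design allows. Within replicate 1 it was -25.1 points and within replicate 2 it was -24.2 points (two-sided Fisher's exact test, adjusted p = 1.91e-30 and 5.28e-13 over 12 pairs). Fisher's test compares libraries and covers counting error, not the spread between cultures.

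**Figure D1:**
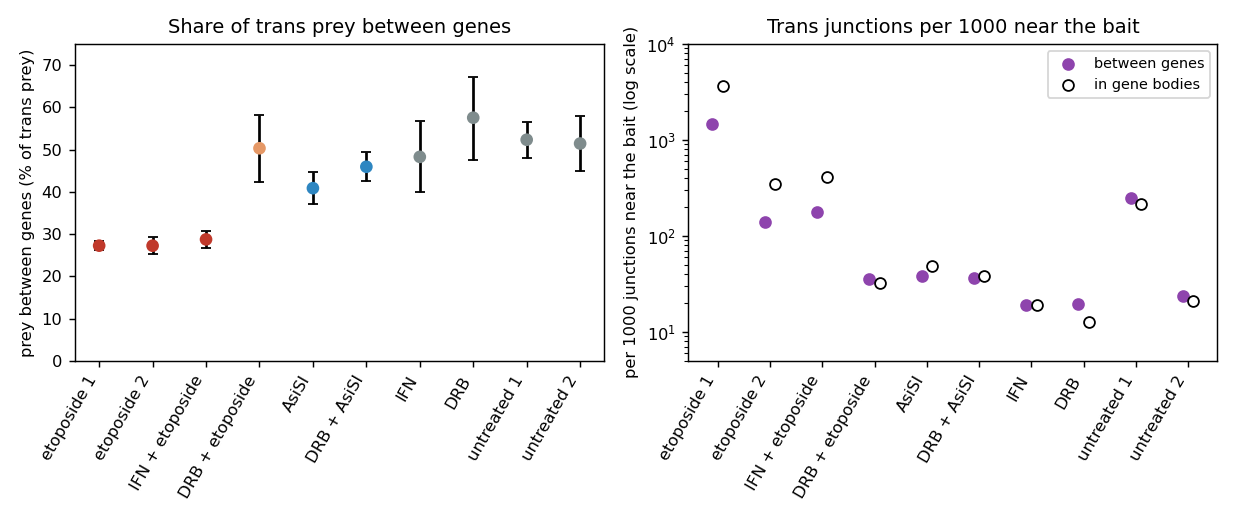
Left, percent of trans prey that lay between genes in each library, with exact 95% binomial intervals; right, junctions between genes (filled) and in gene bodies (open) per 1000 junctions near the bait, on a log scale. The 3 libraries with etoposide and no DRB sit at 27.2% to 28.7%, below the other 7, which sit at 40.9% to 57.5%.

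The intergenic share was low with IFN and etoposide too, but not with DRB and etoposide. Members were 28.7% of trans prey with IFN and etoposide (95% interval 26.7 to 30.8), against 48.3% with IFN alone (39.9 to 56.7), a difference of -19.5 points (Fisher's exact test, adjusted p = 4.89e-06). Against etoposide 1 and etoposide 2 the IFN and etoposide library differed by 1.48 points (-0.787 to 3.75) and 1.49 points (-1.28 to 4.26), and neither difference passed (adjusted p = 0.295 and 0.324, Fisher's exact test).

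With DRB and etoposide 50.3% of trans prey lay between genes (42.3 to 58.3), against 57.5% with DRB alone (47.6 to 67.1). This difference of -7.24 points (-19.4 to 4.94) did not pass (Fisher's exact test, adjusted p = 0.324). The same library was 23.1 points above etoposide 1 and 23.1 points above etoposide 2 (adjusted p = 4.32e-09 and 1.15e-08, Fisher's exact test). The odds ratio of etoposide for lying between genes was 0.747 with DRB and 0.354 without it, a ratio of 2.11 by Woolf's method (95% interval 1.20 to 3.71, which excludes 1). That interval covers counting error in 4 single libraries, not the spread between cultures. With IFN the odds ratio was 0.432, a ratio of 1.22 (0.792 to 1.88, which includes 1) to that without it, and the ratio was 1.63 with an interval that excludes 1 when only members outside every gene were taken. Per 1000 junctions near the bait, members numbered 35.9 with DRB and etoposide and 19.4 with DRB alone, a ratio of 1.85 (1.33 to 2.58). With IFN and etoposide they numbered 178, against 19.3 with IFN, a ratio of 9.22 (7.20 to 11.8). Each of these etoposide libraries was sequenced in run C and its control in run B.

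Neither drug changed the share detectably by itself. IFN differed from untreated 2 by -3.15 points (-13.4 to 7.11) and DRB by 6.12 points (-5.18 to 17.4), with adjusted p = 0.601 and 0.324 (Fisher's exact test). With AsiSI 40.9% of trans prey lay between genes (37.2 to 44.6), against 51.4% in untreated 2 (45.0 to 57.8), a difference of -10.6 points (-17.8 to -3.32) that passed (Fisher's exact test, adjusted p = 0.00887). DRB with AsiSI had 45.9% (42.5 to 49.4), 5.07 points above AsiSI alone (0.0928 to 10.0), and the adjusted p was 0.0845 (Fisher's exact test). The difference passed at 5.43 points for members outside every gene and at 6.65 points without repeat reads (adjusted p = 0.0451 and 0.0262, Fisher's exact test). Members per 1000 junctions near the bait were 38.2 with AsiSI and 23.9 in untreated 2, a ratio of 1.60 (1.30 to 1.97), and 1.28 when satellite and other repeat reads were left out. The AsiSI and untreated libraries differ in run and in tamoxifen, which cannot be told apart from the enzyme.

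Intergenic junctions of etoposide libraries crowded toward genes. The median distance to the nearest protein-coding gene was 29.0 kb in etoposide 1 and 28.8 kb in etoposide 2, against 83.6 kb in untreated 1 and 71.5 kb in untreated 2. The groups did not overlap, with means of 28.9 ± 0.180 kb and 77.5 ± 8.54 kb (SD, n = 2 each), a difference of -48.6 kb (exact permutation p = 0.3333, two-sided, the smallest possible). The median was 27.6 kb with IFN and etoposide, against 57.3 kb with IFN alone. It was 106 kb with DRB and etoposide, against 93.3 kb with DRB alone. DRB with AsiSI had a median of 99.2 kb and AsiSI alone 66.9 kb.

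Distances were set beside the intergenic territory, the 1394 Mb that meet the rule between the first and the last annotated gene of each chromosome, unmappable stretches included. A relative density of 1 means that a distance class held the same share of junctions as of territory. Over all libraries 35 members lay outside these spans. They stay in the counts by distance and by chromosome, though their surroundings are not in the territory. At 2 to 10 kb from a gene the relative density was 2.08 (95% Poisson interval 1.89 to 2.28) in etoposide 1, 2.19 (1.86 to 2.57) in etoposide 2 and 2.13 (1.81 to 2.50) with IFN and etoposide. It was 1.04 (0.725 to 1.43) in untreated 1 and 1.15 (0.684 to 1.82) in untreated 2. Beyond 500 kb it was 0.325 (0.259 to 0.403), 0.404 (0.278 to 0.567) and 0.382 (0.261 to 0.539) in the same etoposide libraries, against 1.02 (0.735 to 1.38) and 1.52 (1.01 to 2.19) in untreated 1 and 2. The 3 etoposide libraries without DRB thus fell off at each step out to 500 kb, while the untreated ones stayed near 1 in most classes and were lowest at 200 to 500 kb, at 0.635 and 0.667. With DRB and etoposide the density at 2 to 10 kb was 1.497 (0.838 to 2.47) and beyond 500 kb 0.674 (0.291 to 1.33), and both intervals include 1. With AsiSI the density was 1.14 at 2 to 10 kb and 0.960 beyond 500 kb.

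**Figure D2:**
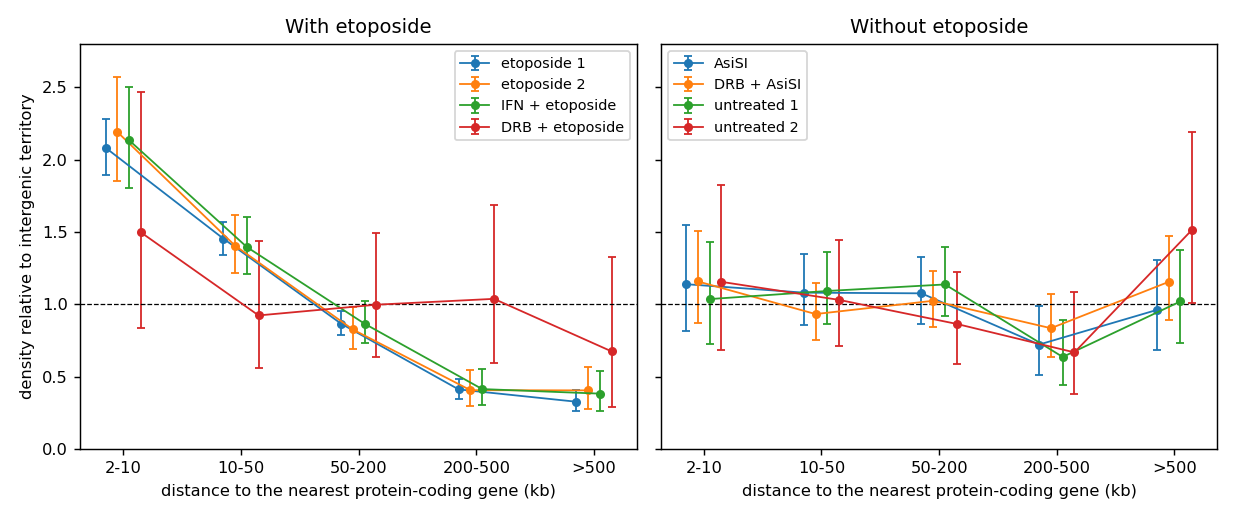
Density of members by distance to the nearest protein-coding gene (kb), relative to the share of intergenic territory in each class; bars are exact 95% Poisson intervals and the dashed line is 1. Etoposide 1, etoposide 2 and IFN with etoposide fall from 2.08 to 2.19 at 2 to 10 kb down to 0.325 to 0.404 beyond 500 kb, and the libraries without etoposide stay closer to 1.

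Set against the control instead of the territory, the rise with etoposide alone was smaller the farther a junction lay from genes. This breakdown was chosen after the data were seen and has no test. Per 1000 junctions near the bait, etoposide 1 was 20.1-fold above untreated 1 within 2 kb of a gene end (12.0 to 33.8), 11.7-fold at 2 to 10 kb (8.31 to 16.4), 7.73-fold at 10 to 50 kb (6.11 to 9.78), 4.42-fold at 50 to 200 kb (3.53 to 5.55), 3.75-fold at 200 to 500 kb (2.58 to 5.46) and 1.85-fold beyond 500 kb (1.28 to 2.69). Etoposide 2 over untreated 2 ran 14.7, 11.02, 7.92, 5.55, 3.53 and 1.55 in the same order, with an interval beyond 500 kb of 0.936 to 2.56. The ratios of both replicates fell at every step from the gene end outward. IFN with etoposide over IFN gave 18.9 at 2 to 10 kb (9.67 to 37.1), 9.17, 9.95 and 5.64 in the next classes and 3.28 beyond 500 kb (1.66 to 6.51), so it did not fall at every step. DRB with etoposide over DRB gave 2.32 (1.02 to 5.30), 1.89, 1.78, 2.23 and 1.11 (0.440 to 2.82) in the same order, on 8 to 23 junctions in each class of the treated library.

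**Figure D3:**
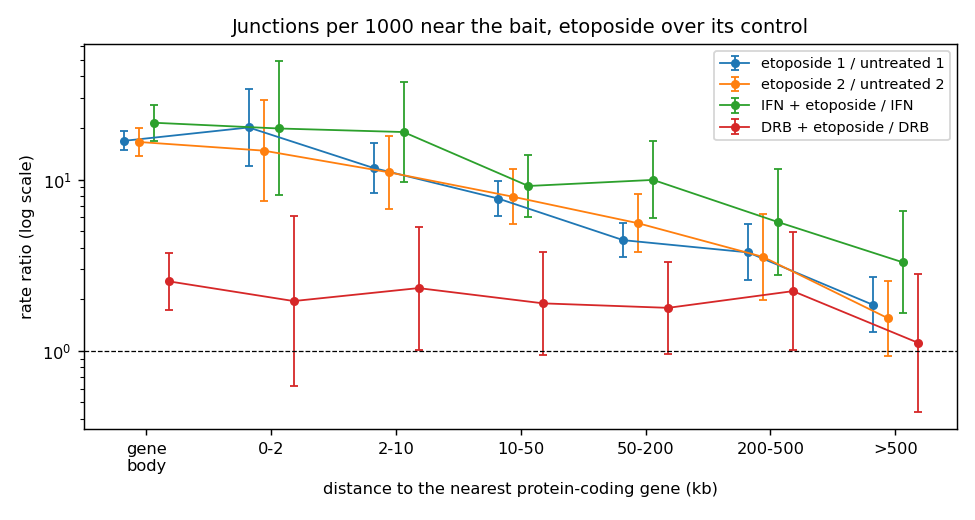
Ratio of junctions per 1000 near the bait, etoposide library over its control without etoposide (log scale), by distance from protein-coding genes; bars are 95% log-normal intervals. Both etoposide replicates step down from 11.7 and 11.02 at 2 to 10 kb to 1.85 and 1.55 beyond 500 kb, and the DRB pair lies between 1.11 and 2.54.

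For genes whose strand was known, the share of members on the upstream side of the nearest gene had an interval that included an even split in each library. The upstream share was 51.3% (95% interval 48.6 to 54.0) in etoposide 1 and 54.5% (49.6 to 59.3) in etoposide 2, against 49.1% (42.3 to 55.9) in untreated 1 and 56.0% (45.7 to 65.9) in untreated 2. Within 50 kb of the gene it was 51.9% (48.5 to 55.3) in etoposide 1, 57.8% (51.6 to 63.7) in etoposide 2 and 57.1% (51.1 to 62.9) with IFN and etoposide, with the intervals of etoposide 2 and of IFN with etoposide above an even split. The untreated libraries gave 57.6% (46.9 to 67.9) and 61.5% (44.6 to 76.6) there.

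Certain genes had several etoposide junctions in the space around them. They were picked out after their counts were seen, and for their known roles, so the counts are a description. The 2868 members of etoposide 1, etoposide 2 and IFN with etoposide had 2073 nearest genes, of which 1594 had 1 member and 29 had 5 or more, 17 of these with 0 in the other 7 libraries. How many of all 2073 had 0 there was not counted, so whether 17 of 29 is a high share cannot be said. The 1287 members of those 7 libraries had 934 nearest genes, of which 18 had 5 or more. Myc, the proto-oncogene transcription factor, was nearest to 11, 3 and 2 members in etoposide 1, etoposide 2 and IFN with etoposide, and to 1 in the other 7 libraries. These lay on 1 side of the gene, from 62039947 to 62824219 on chromosome 15, which is 49.6 to 834 kb from Myc (61985341 to 61990361). The first 9 of them fell inside the noncoding gene Pvt1.

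The following genes are among those 17 and were picked for their roles. Foxo1, a transcription factor that B-cell development requires, had 6 in etoposide 1 and 1 in etoposide 2, at 50.2 to 288 kb. Id2, which restrains the E proteins of lymphoid cells, had 6 in etoposide 1 and 1 with IFN and etoposide. Lef1, a transcription factor of pro-B cells, had 5 in etoposide 1 and 1 with IFN and etoposide, and Irf8, a transcription factor of B and myeloid cells, had 4 in etoposide 1 and 1 in etoposide 2. Cxcr4, the chemokine receptor that keeps precursors in the marrow, had 3 in etoposide 1 and 2 in etoposide 2. Ets2, a transcription factor, and Tle3, a corepressor, each had 4 in etoposide 1 and 2 with IFN and etoposide. Genes of the 17 that were not picked for such roles had similar counts. Over etoposide 1, etoposide 2 and IFN with etoposide, Mrpl39 had 8, Cpn2 had 7, and Fam204a, Kif2a and Zcchc13 had 6 each. The other 7 libraries held fewer members, so a gene with 5 or 6 etoposide members could show 0 there through depth. A gene with a longer gene-free stretch around it can also collect more members, and these lengths were not computed. The farthest member lay 42.0 kb from Irf8 and 1363 kb from Mrpl39.

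The next question was whether intergenic junctions fell in noncoding genes. Antigen receptor loci and segments are counted among these, in the junctions and in the territory. Across all libraries 711 members lay inside 567 noncoding genes of RefSeq, 546 of them long noncoding RNA genes, and 483 of the 567 held a single position. Another 54 members lay in pseudogenes. The noncoding share was 18.5% in etoposide 1 (321 of 1739) and 20.3% in etoposide 2 (113 of 557), against 14.6% in untreated 1 (41 of 281) and 8.73% in untreated 2 (11 of 126). Both etoposide libraries were above both untreated ones, and noncoding genes cover 12.0% of the territory. The means were 19.4% ± 1.29 and 11.7% ± 4.14 (SD, n = 2 each), a difference of 7.71 points (exact permutation p = 0.3333, two-sided, the smallest possible), 3.87 within replicate 1 and 11.6 within replicate 2. With antigen receptor entries not counted as noncoding, the difference was 7.48 points. IFN with etoposide had 15.6% (12.7 to 18.8), against 21.4% with IFN alone (12.5 to 32.9). DRB with etoposide had 14.8% (7.90 to 24.4), against 18.0% with DRB alone (9.36 to 29.98). The higher share with etoposide was thus seen only between etoposide alone and untreated, and the single libraries overlap widely. Members are nearer to genes with etoposide, and whether noncoding genes are denser there was not tested.

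Of 18 noncoding genes chosen for their known roles, 16 are annotated on the chromosomes used and 8 held at least 1 member. All 23 of their members came from etoposide 1, etoposide 2 or IFN with etoposide, and 0 from the other 7 libraries. The same 3 libraries held 523 of all 711 noncoding members and 2868 of all 4155 members. Pvt1, a host of microRNAs beside Myc (chromosome 15, 62037986 onward, 222 kb long), had 6, 2 and 1 in those libraries. Malat1, an abundant nuclear RNA on chromosome 19, had 1, 2 and 1 within its 6.98 kb, and Firre, an X-linked RNA that organises chromatin, had 1, 0 and 2. Xist, the RNA that silences an X chromosome, had 1, 1 and 0, and its neighbour Ftx had 2, 0 and 0. Neat1, which builds paraspeckles, and Dleu2, which hosts microRNAs lost in leukaemia, had 1 each in etoposide 1, and Mir155hg, the precursor of the lymphoid miR-155, had 1 in etoposide 2. Gas5, Snhg1, Snhg5, Mir17hg, Jpx, Kcnq1ot1, Meg3 and Trp53cor1 held 0. How much of each listed gene lies outside protein-coding genes and their margins was not computed. Where no part does, the 0 is fixed by the rule. Among the other noncoding genes with the most positions, Gm26562 had 4, 2 and 0, Gm15411 had 2, 1 and 1 and Gm31452 had 3, 0 and 1 in the 3 etoposide libraries, each with 0 elsewhere. The gene 4930552P12Rik had 1 each in etoposide 1, IFN with etoposide, AsiSI and untreated 2. Gm33838 held 18 members, all in the satellite cluster of chromosome 9 within 376 bases from 35305216, and Gm30275 lies in the T-cell receptor delta locus and held 12 members, 10 of them from AsiSI libraries.

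Receptor segments are not protein-coding genes in RefSeq, so antigen receptor loci off the bait chromosome count as intergenic. They held 46 members, and the AsiSI libraries, with 668 of the 4155 members, held 27 of these. The T-cell receptor alpha locus Tcra (chromosome 14, 52427967 to 54224198), which encloses the delta locus Tcrd, had 7 in AsiSI and 11 in DRB with AsiSI, 5 and 1 in etoposide 1 and 2, 1 with DRB and etoposide and 1 in untreated 1. Of these, 12 lay in Tcrd. The gamma locus Tcrg (chromosome 13, 19178042 to 19356476) had 2 with AsiSI, 5 with DRB and AsiSI, 1 with DRB and etoposide and 1 in etoposide 1. Within 100 bases of single segments lay 3 junctions at Trgj2, all from AsiSI libraries, 3 at the diversity segment Trdd2, 1 each from etoposide 1, DRB with etoposide and AsiSI, and 2 at Trdd1, both from DRB with AsiSI. In pre-B cells the RAG recombinase, which cuts at such segments, is induced by imatinib arrest, as known from other work on these lines. The immunoglobulin heavy chain locus Igh held 2, 2 and 2 in etoposide 1, etoposide 2 and AsiSI, and the lambda locus Igl held 4 in etoposide 1 and 1 in untreated 1.

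Chromosome 19 held more members than its territory would give, and the X chromosome fewer. Over all libraries the relative density was 1.78 (95% Poisson interval 1.51 to 2.09) on chromosome 19, 1.35 (1.18 to 1.53) on chromosome 11, 1.32 (1.14 to 1.52) on chromosome 17 and 1.24 (1.09 to 1.41) on chromosome 9. It was 0.604 (0.526 to 0.691) on X and 0.772 (0.660 to 0.897) on chromosome 13. Of the 230 members on chromosome 9, 18 satellite reads lay near its start and 18 from position 35305216 onward. The density without satellite reads was not computed. On chromosome 19 it was 1.84 (1.42 to 2.35) in etoposide 1 and 2.13 (1.36 to 3.16) in etoposide 2, against 0.527 (0.109 to 1.54) in untreated 1 and 2.35 (0.862 to 5.11) in untreated 2. On X it was 0.560 (0.446 to 0.694) and 0.653 (0.443 to 0.926) with etoposide, against 0.876 (0.542 to 1.34) in untreated 1 and 0.465 (0.151 to 1.09) in untreated 2. The untreated libraries had 3 and 6 members on chromosome 19, too few to set against etoposide. Chromosome 14 was high in AsiSI (1.98, 1.32 to 2.84) and DRB with AsiSI (1.82, 1.27 to 2.51), where 18 of 65 members lay in Tcra and 11 in the satellite window.

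The joints of intergenic prey carried inserted bases more often than those of genic prey in the etoposide and AsiSI libraries. Inserted bases were found at 8.28% of members and 3.24% of genic junctions in etoposide 1, 6.82% and 2.60% in etoposide 2, 5.24% and 2.40% with IFN and etoposide, and 17.3% and 12.3% with DRB and etoposide. In DRB with AsiSI they were found at 29.2% and 20.5%, in AsiSI at 71 of 284 and 78 of 358, and in DRB at 10 of 61 and 6 of 40. In untreated 1 and 2 the values were 17.4% and 17.8%, and 17.5% and 15.5%, and with IFN 10.0% and 11.4%. The share was higher between genes in 8 of 10 libraries, by 3.06 ± 2.92 points on average (SD, n = 10), which passed the exact sign-flip permutation test over libraries (two-sided p = 0.0117). That test pools libraries of unlike conditions. The difference was 2.84 to 8.71 points in the etoposide and AsiSI libraries. It was -1.43 with IFN, 1.39 with DRB, and -0.405 and 2.01 in untreated 1 and 2, so its direction varied there. In etoposide 1 the share climbed with distance, at 4.02% at 2 to 10 kb from a gene, 5.91%, 9.79% and 22.8% in the next classes and 18.1% beyond 500 kb. Etoposide 2 had 7.95%, 6.03%, 4.58%, 9.30% and 12.1% in the same order, so no such climb was seen up to 200 kb.

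Overlap between bait and prey, the sign of microhomology, was most frequent in the 3 etoposide libraries without DRB, in both kinds of prey. It was found at 77.8% of members and 85.8% of genic junctions in etoposide 1, 78.6% and 86.4% in etoposide 2, and 85.3% and 86.7% with IFN and etoposide. Members had it at 66.7% with DRB and etoposide, 68.3% with AsiSI, 60.7% with DRB and AsiSI, 72.9% with IFN, 54.1% with DRB, and 54.8% and 63.5% in untreated 1 and 2. Members were below genic prey in 7 of 10 libraries, by -2.16 ± 6.12 points on average (SD, n = 10), which did not pass (exact sign-flip permutation test, p = 0.334). Counting only overlaps of at least 3 bases, the difference was -4.51 points and passed (p = 0.0488, same permutation test). The median overlap, where there was any, was 2 to 3.5 bases in every library. Prey alignments differ in length between runs, and the part of length in these shares was not tested.

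**Figure D4:**
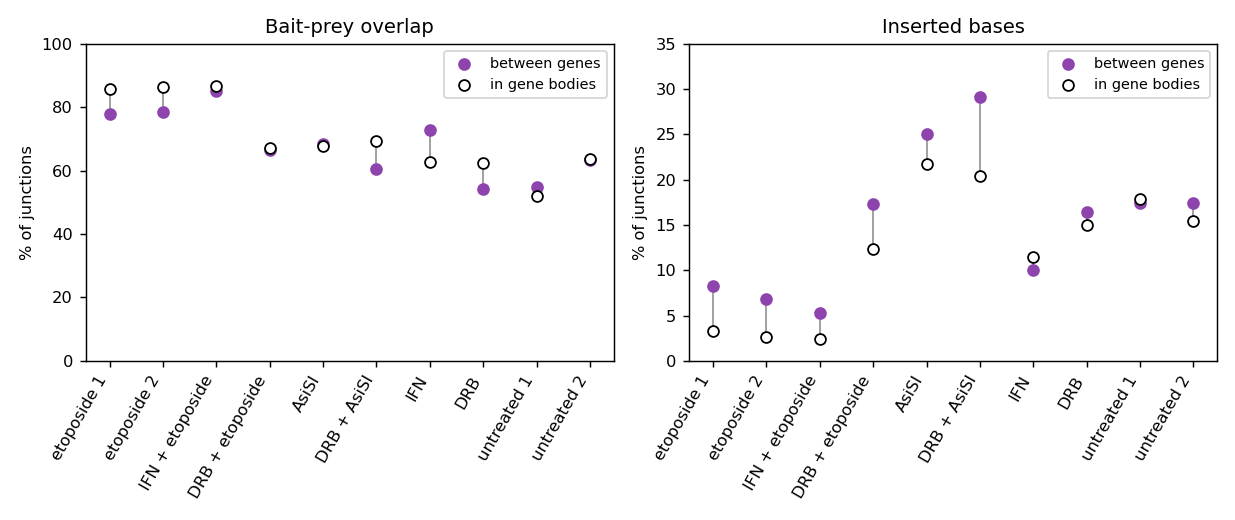
Percent of junctions with bait-prey overlap (left) and with inserted bases (right) in each library, between genes (filled) and in gene bodies (open). Inserted bases are more frequent between genes in 8 of 10 libraries, and the 3 etoposide libraries without DRB have the lowest values, at 5.24% to 8.28% between genes.

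Members were seldom repeated. The 4155 members took 4071 positions, and the share of members at a position used more than once in its library was 4.31% in etoposide 1, 3.39% in DRB with AsiSI, 2.46% in AsiSI, 2.14% in untreated 1 and under 1% in the other 6. Genic prey repeated more, by 0.896 ± 1.09 points (SD, n = 10; members lower in 6 libraries and higher in 1, exact sign-flip permutation test, p = 0.0312). With the chromosome 2 window kept the p was 0.375, and it was 0.0625 without any 1 of etoposide 1, etoposide 2, AsiSI, DRB with AsiSI, IFN or untreated 1. Mean G and C content of the prey reads was lower in members than in genic prey in each library, for example 47.5% and 49.0% in etoposide 1 and 44.8% and 47.9% in untreated 1.

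Sharing between libraries was rare too. Of the 4071 positions 25 occurred in more than 1 library, 22 of them in 2 and 3 in 3. Of the 25, 10 were in both AsiSI libraries, which share a run, and 11 were in satellite or other repeat reads. Of 3660 occupied 20-kb windows 167 were shared, and 388 of 3231 windows of 100 kb. AsiSI had 25.7% of its members in shared 20-kb windows, DRB with AsiSI 20.1%, DRB with etoposide 16.0%, IFN 14.3%, IFN with etoposide 13.3%, DRB 11.5%, etoposide 2 11.3% and etoposide 1 9.14%, against 12.5% in untreated 1 and 4.76% in untreated 2. These shares depend on the depth of the other libraries.

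Of the 10 windows with the most positions 4 were satellite DNA, among them the pair with the most. The window of chromosome 14 that starts at 19.4 Mb, whose nearest gene Gm2244 is 114 kb away, held 53 members at 52 positions. It had 15 in etoposide 1, 4 in etoposide 2, 8 with IFN and etoposide, 6 with DRB and etoposide, 4 with AsiSI, 7 with DRB and AsiSI, 9 in untreated 1 and 0 in IFN, DRB and untreated 2. Reads with its recurrent 12-base words, like the satellite reads printed above, numbered 95 among members and 2 among genic prey. They mapped to 4 places: this window, chromosome 9 near 3.0 Mb and within 376 bases from 35305216 (18 members each), and chromosome 12 near 3.1 Mb (6 members). Satellite reads were 1.38% of members in etoposide 1 (0.886 to 2.05) and 1.44% in etoposide 2 (0.622 to 2.81). They were 6.41% in untreated 1 (3.84 to 9.94) and 0 of 126 in untreated 2 (0 to 2.89). The untreated libraries therefore differ from each other in this, and they also differ in run and read length. Untreated 1 is from run A, with a median prey alignment of 229 bp, and untreated 2 from run B, with 66 bp. The other libraries of run B had 1 of 70 with IFN and 0 of 61 with DRB. The part of run and alignment length was not tested. With DRB and etoposide, in run C, the share was 9.88% (4.36 to 18.5), and its control DRB is from run B.

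The simple tandem repeat of TAATG near Ppp6c on chromosome 2 held 11 members within 33 bases, with 1 in etoposide 1, 1 with IFN and etoposide, 2 with AsiSI, 5 with DRB and AsiSI and 2 with IFN. Such reads can map to several places of the genome, so their position is uncertain.

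Between Malat1 and Neat1 the AsiSI libraries shared a cluster of junctions. The window of chromosome 19 that starts at 5800000 held 11 members, 5 with AsiSI, 3 with DRB and AsiSI, 2 in etoposide 2 and 1 with IFN and etoposide, and 0 in the other 6. Of the AsiSI members 7 lay within 5804035 to 5804154, and 0 members of the other 8 libraries did. The 4 on the - strand ended at or before 5804067 and the 3 on the + strand began at or after 5804081, so they pointed away from a gap of 13 bases. The pair of reads printed above flanks this gap, and the left one begins with CGC. AsiSI sites were not mapped, so whether the gap holds one was not tested. Across all members the letters CGC within the first bases of the prey, starting at base 1 to 5, did not differ detectably with the enzyme. Of libraries without the enzyme, etoposide 1, etoposide 2 and IFN with etoposide had these letters in 2.59%, 1.97% and 3.32% of members. The others without it had these letters in 0% to 1.59%. They were found in 1.76% of members with AsiSI (5 of 284) and 1.59% in untreated 2 (2 of 126). With DRB and AsiSI they were found in 0.781% (3 of 384). DRB had 0 of 61, which allows up to 4.92% by a limit from 3 counts. None of the 3 comparisons passed (Fisher's exact test, adjusted p = 1, 1 and 0.885).

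The counts of the following windows stand beside the 2949 of 4155 members (71.0%) that the 4 etoposide libraries held. The window beside the ribosomal RNA pseudogene Rn18s-rs5 and the noncoding gene AY036118 on chromosome 17 held 3, 2, 3 and 1 members in etoposide 1, etoposide 2, IFN with etoposide and DRB with etoposide, 1 in each AsiSI library and 0 in the other 4. Whether these reads also match other copies of ribosomal DNA was not tested, so their position is uncertain. A window 38.2 kb from Csf2ra, the receptor subunit for GM-CSF, on chromosome 19 held 5, 2, 2 and 1 in the same etoposide libraries and 0 in the other 6, all within 442 bases. Its longest prey read holds a tandem stretch with a longer shift than the 6 bases that the search for tandem reads covered. Whether the reads of this window map to other places too was not tested. The window near Rrp1b on chromosome 17 held 1 each in etoposide 1, IFN with etoposide and DRB with AsiSI. Windows in Tcrd, Tcrg and Igh were also among the recurrent ones.

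**Figure D5:**
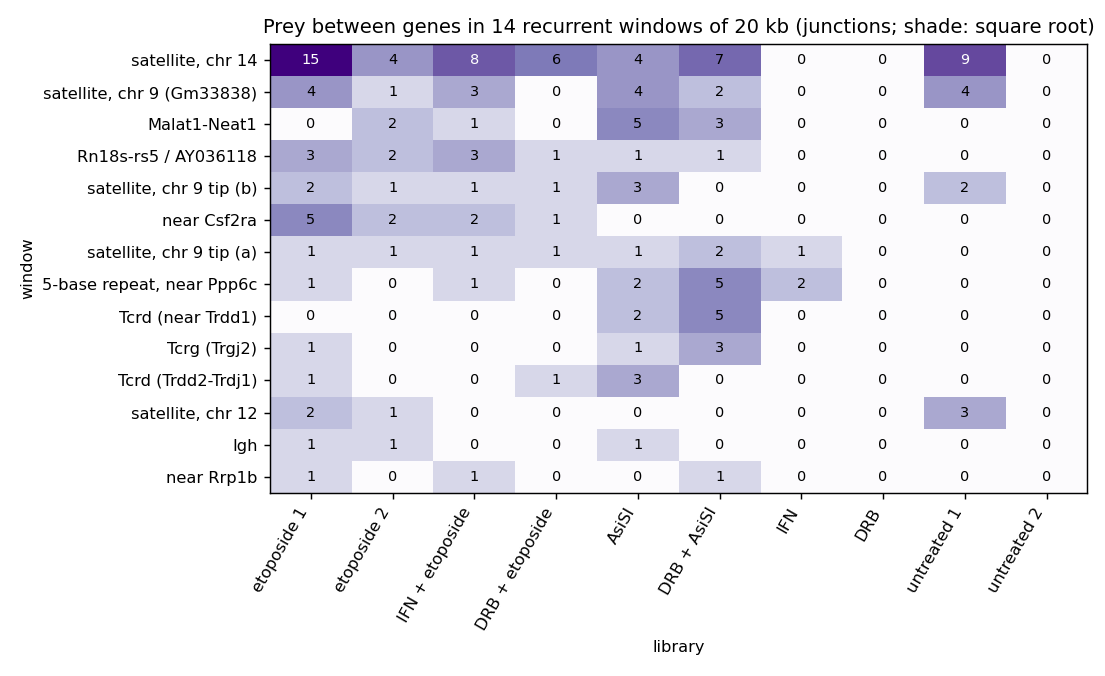
Number of members in each library for 14 windows of 20 kb chosen by number of positions or of libraries, with darker shades for higher numbers. The chromosome 14 satellite window has members in 7 libraries, the Csf2ra window in the 4 etoposide libraries only, and the windows in Tcrd and Tcrg mostly in the AsiSI libraries.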

How the data were processed

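The authors' deposited files list 1 junction per row with position, strand, bait and prey alignment and read, per the file headers (other values, with no counts per region and no normalization). Per the labels' protocols the standard pipeline of the assay was used on MiSeq reads, and the submitters' processing notes name bedtools, mm10 and GRCm38.p2. The authors' filters on repeats are not given in the sources used here.

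Gene positions came from the RefSeq table of GRCm38.p6, without 340 entries that start before 3 Mb. Noncoding means any RefSeq type other than protein-coding or pseudogene. Strand came from the RefSeq promoter table. Overlap and inserted bases were taken from bait and prey positions in the read. Satellite reads held at least 3 of 512 words of 12 bases seen in at least 10 reads of the chromosome 14 window, and tandem reads matched themselves at 80% or more at a shift of up to 6 bases. The etoposide and untreated pairs were set against each other by exact permutation, single libraries with Fisher's exact test and Benjamini-Hochberg adjustment at a threshold of 0.05, odds ratios with Woolf's test, and members with genic prey (inside gene bodies) with sign flips over 10 libraries. Binomial intervals are exact (Clopper-Pearson, 95%), and they cover counting error only, as does the limit from 3 counts given for CGC with DRB. The scripts were tested on simulated data. Python 3.11.15, scipy 1.17.1 and pandas 2.3.3 were used.

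Members and lists were chosen with earlier results of these data known. Named windows were the 10 of 20 kb with the most positions and the 5 next in number of libraries, of which 1 is not reported here, and named noncoding genes the 12 with the most positions and every list member hit. Replicates may be technical, and p-values then measure only the spread between libraries. The labels pair etoposide and untreated replicates by naming each control. The alternatives were a margin of 10 kb, members outside every gene, identical positions once, the chromosome 2 window kept, recurrent windows or X left out, and others named below.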

Additional observations from a re-analysis of the deposited data

Results flagged for a closer look

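Between single libraries, the odds ratio of etoposide for lying between genes was 2.11 times as large with DRB as without it (Woolf's method, 95% interval 1.20 to 3.71), from 81 of 161 trans prey with DRB and etoposide, 557 of 2045 with etoposide, 61 of 106 with DRB and 126 of 245 in untreated 2. The interval takes junctions as the units and covers counting error only. Each arm is 1 library, and both etoposide libraries are from run C and both others from run B, so a difference between conditions beyond these libraries was not tested.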

How the results depend on the processing

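Of 317 values under alternative settings, 300 kept their direction and their side of the threshold or stayed within counting error. For the share, distance and noncoding differences between etoposide and untreated, the permutation p could not fall below the threshold under any setting. Their side of the threshold was fixed in advance, and only their direction and size could change. The count of 300 includes these differences. The share difference between etoposide and untreated ranged from -25.1 to -24.2 points with single libraries left out, the distance difference from -54.7 to -42.6 kb and the noncoding difference from 4.78 to 10.6 points. The overlap, insertion and repeated position differences ranged from -3.51 to -1.42, 2.43 to 3.55 and -1.001 to -0.678 points. Paired by the controls the labels name (replicate block), the differences were -24.6 points, -48.6 kb and 7.71 points, and the smallest p that 2 pairs allow is 0.5. With members at least 10 kb from genes the rate ratio of replicate 1 was 4.94 and the CGC difference of AsiSI against untreated turned to -0.213 points. Outside every gene that difference was -0.0813, DRB with AsiSI exceeded AsiSI by 5.43 points and passed, and the IFN ratio of odds ratios was 1.63 with an interval that excludes 1. With the chromosome 2 window kept the rate ratio was 4.67 and the repeated position difference -0.534. Overlap of at least 3 bases gave -4.51 points and passed. Without repeat reads, chosen after seeing the data, DRB with AsiSI exceeded AsiSI by 6.65 points and passed, and the AsiSI rate ratio was 1.28. Shared windows numbered 388 at 100 kb and 167 at 20 kb. The cause of these changes was not tested. The alternative on mapping quality was not run, because the column holds 0 in every row. The 61 to 81 members of DRB, IFN and DRB with etoposide limit what could be detected there.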
